A study of Homo sapiens with 4 samples.

Results

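The genes of homologous recombination, of the Fanconi anemia pathway and of mismatch repair were described in KGN cells, a human granulosa-like tumor cell line with aromatase activity, with and without overexpression of TOX3. They were 45 named genes, chosen by symbol from the 33880 genes of the expression table, and all 45 were found. KGN cells were infected with a control lentivirus (LV-CON) or with a lentivirus carrying full length TOX3 (LV-TOX3), each added at a ratio of 1 to 200 and carrying puromycin resistance. Both groups were then selected with 2 mg/ml of puromycin for 2 passages, so the control cells share the infection and the selection, and all cells come from a single tumor line. RNA with poly(A) tails was sequenced from 2 libraries of each group. No source used here says whether the 2 libraries of a group come from separate infections or cultures, and the p-values then measure only the spread between these libraries, which may be technical.

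Homologous recombination mends a broken chromosome by copying the intact sister. The broken ends are first resected to single strands, BRCA1 and BRCA2 with their partners then prepare these strands for exchange with the sister, and helicases of the RecQ family untangle the joined molecules. The Fanconi proteins recognise crosslinks between the strands, mark the FANCD2 and FANCI pair with ubiquitin, and hand the lesion to nucleases and to recombination. Mismatch repair removes base pairing errors left by the replication machinery. Many of these genes are read mainly in S phase, and oocytes also draw on them to mend the breaks of meiosis.

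TOX3 itself was at 0 reads in both LV-CON libraries and at 1586 and 1428 reads in the LV-TOX3 libraries (18.1 and 17.3 RPKM, that is, reads scaled to the length of the gene and the depth of the library), with an adjusted p of 0.0031 by limma. The libraries held 16403371 to 17858746 reads. The granulosa markers FOXL2 (10.5, 10.9, 11.0 and 11.0 RPKM, the LV-CON libraries first) and NR5A1 (21.2, 21.7, 21.0 and 21.4 RPKM) were present in every library, while CYP11A1 (0.210 to 0.395 RPKM) and AMHR2 (0.0159 to 0.147 RPKM) were close to 0. Of the 13 granulosa markers, 11 reached a mean of 0.5 RPKM. Summed leukocyte markers lay between 0.575 and 0.763 RPKM and epithelial markers between 0.703 and 1.02 RPKM over the 4 libraries. Summed endothelial markers lay between 2.45 and 3.25 RPKM, most of it from KDR, and of the theca markers CYP17A1 and INSL3 were at or near 0 while STAR, which is also on the granulosa list, was at 5.91, 4.18, 4.74 and 3.92 RPKM. Mitochondrially encoded genes took 21.9% to 23.1% of the summed RPKM.

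None of the repair genes differed between LV-TOX3 and LV-CON at an adjusted p under 0.05. The test was limma on log2(RPKM + 0.1) over 14184 genes, those whose mean reached 0.5 RPKM, of which 0.00705% passed (1 gene, TOX3). With limma-voom on the recovered reads and no replicate block, TOX3 was again the 1 gene that passed. With the replicate number as a block, limma-voom passed more genes, CLSPN among them, as given in the last section. Of the 45 genes, 43 entered the test. At an unadjusted p under 0.05, 0 of the 43 were higher in LV-TOX3 (3.07% of all genes tested) and 1, CHEK1, was lower (3.73% of all genes tested). The log2 fold changes ran from -0.50 (CLSPN) to 0.24 (BRIP1), with a median of -0.04 against -0.01 over all genes tested, and 24 of the 43 were negative (53.2% of all genes tested). In 9 genes both LV-TOX3 libraries lay below both LV-CON libraries (20.6% of all genes tested), and in 4 they lay above (17.0% of all genes tested). These shares of the repair genes, 20.9% and 9.30%, are near or below those of all genes. In bulk RNA a smaller share of cells that express a gene and less RNA per cell cannot be told apart.

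Small changes were not resolved in these libraries, but large ones were bounded for most of the repair genes. The 95% interval of the log2 fold change lay within -1 and 1 for 41 of the 43 genes (81.7% of all genes tested). The exceptions were CLSPN (-1.25 to 0.26) and RAD50 (-1.02 to 0.68). The interval lay within -0.5 and 0.5 for 24 genes (54.1% of all genes tested). The median standard error was 0.14 on the log2 scale. The genes rested on 61 to 2188 reads per library, with a median of 300.5, and 3 of them had fewer than 100 reads in some library.

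**Figure D1:**
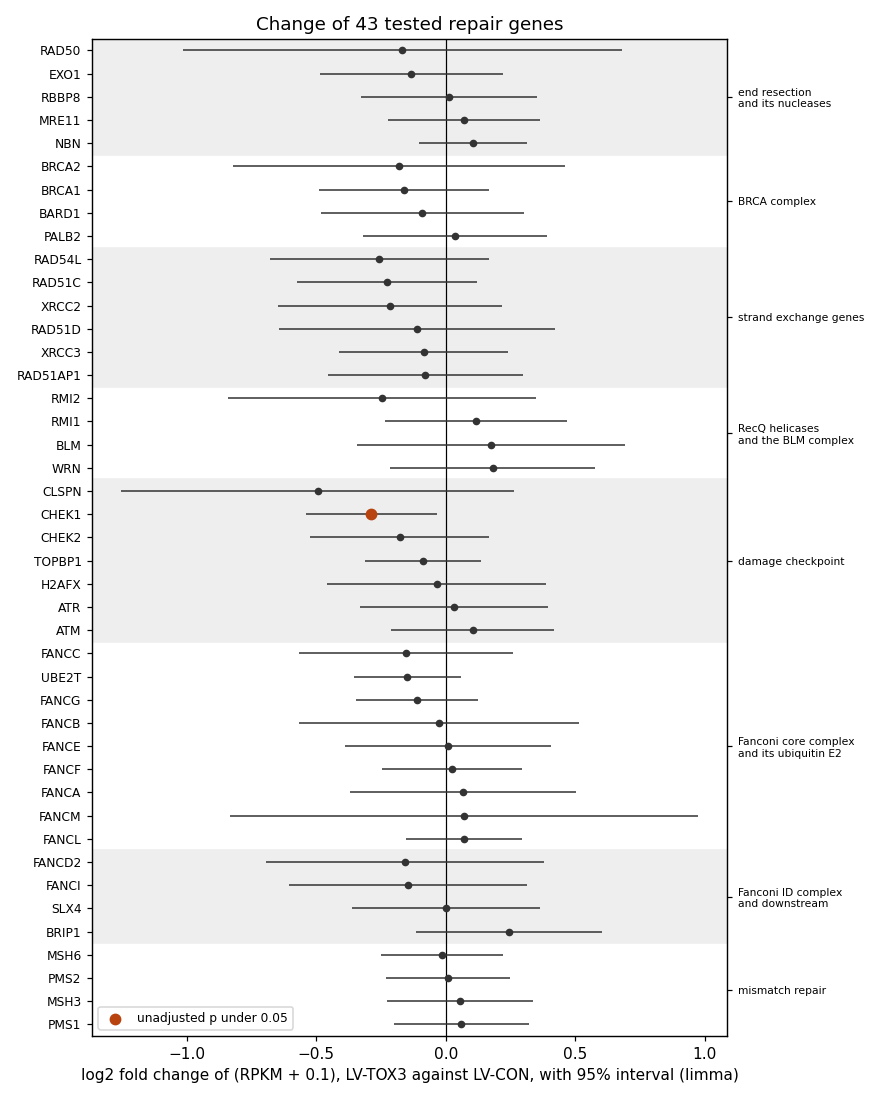
The log2 fold change of RPKM + 0.1 in LV-TOX3 against LV-CON (horizontal axis) is shown for the 43 tested repair genes by role, each point with its 95% limma interval and shading separating the roles. All intervals but that of CHEK1 include 0, and the points run from -0.50 for CLSPN to 0.24 for BRIP1.

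The first step, end resection, is led by the complex of MRE11, RAD50 and NBN, which holds the broken ends, with RBBP8 (CtIP), which starts the cut, and the nuclease EXO1, which lengthens it. NBN was the second most abundant of the 45 genes, at 19.3 and 19.0 RPKM in LV-CON and 19.6 and 21.7 RPKM in LV-TOX3. Both LV-TOX3 values lay above both LV-CON values, with a log2 fold change of 0.11 (SE 0.08, adjusted p = 0.86). MRE11 was at 2.92 and 3.19 RPKM in LV-CON and 3.11 and 3.31 RPKM in LV-TOX3, so that the groups overlapped (log2 fold change 0.07, adjusted p = 0.94). RAD50, the third subunit, was much lower per length, at 0.634 and 0.894 RPKM against 0.641 and 0.680 RPKM (log2 fold change -0.17, SE 0.33, adjusted p = 0.95). Of the RAD50 exon bases, 76.9% also belong to another protein-coding gene on the same strand that was not analysed here, so its level is uncertain. EXO1 was at 4.07 and 5.02 RPKM in LV-CON and 3.94 and 4.29 RPKM in LV-TOX3, with LV-CON replicate 2 above the other libraries (log2 fold change -0.13, SE 0.14, adjusted p = 0.88).

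The BRCA complex acts on the resected strands. BRCA1 was at 3.17 and 3.77 RPKM in LV-CON (502 and 600 reads) and 3.08 and 3.07 RPKM in LV-TOX3 (479 and 450 reads). The LV-TOX3 values were close together and below both LV-CON values, and the LV-CON libraries differed from each other by more than counting error (ratio 1.19, exact 95% interval 1.05 to 1.34). The log2 fold change of -0.16 (SE 0.13, 95% interval -0.49 to 0.17, adjusted p = 0.86) was therefore within the spread between replicates. It was -0.28 without LV-CON replicate 1 and -0.04 without LV-CON replicate 2. BARD1, the RING partner that stabilises BRCA1, was at 3.04 and 3.90 RPKM against 3.30 and 3.16 RPKM, again with only LV-CON replicate 2 standing apart. BRCA2, the product of the other hereditary breast and ovarian cancer gene, was lower at 1.02 and 1.38 RPKM against 0.955 and 1.12 RPKM (log2 fold change -0.18, SE 0.25, adjusted p = 0.92). PALB2, the bridge between BRCA1 and BRCA2, was the exception in its order of libraries, with 2.44 and 2.15 RPKM in LV-CON and 2.44 and 2.26 RPKM in LV-TOX3 (log2 fold change 0.04, adjusted p = 0.98).

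The strand exchange genes help the resected strand to pair with the sister, and all 6 tested members had a negative log2 fold change (median -0.16), with none at an unadjusted p under 0.05. RAD51C, a paralog in both paralog complexes, was at 3.32 and 3.67 RPKM in LV-CON and 3.23 and 2.73 RPKM in LV-TOX3. RAD54L, a motor that drives strand exchange, was at 2.45 and 2.81 RPKM against 2.43 and 1.95 RPKM. For both genes the groups did not overlap, but LV-TOX3 replicate 1 lay next to LV-CON replicate 1 (log2 fold changes -0.23, SE 0.13, adjusted p = 0.80, and -0.26, SE 0.16, adjusted p = 0.81). XRCC2, at 1.97 and 2.42 RPKM against 1.99 and 1.76 RPKM, and XRCC3, at 2.52 and 2.72 RPKM against 2.36 and 2.57 RPKM, had overlapping groups. XRCC3 shares 76.7% of its exon bases with KLC1 on the opposite strand, and whether reads were counted by strand is not given in the sources used here. RAD51AP1, the most abundant of the group and an enhancer of strand pairing, was at 7.16 and 8.23 RPKM against 6.47 and 8.15 RPKM, with both replicates numbered 2 high (log2 fold change -0.08, adjusted p = 0.95). All 6 genes were highest in LV-CON replicate 2, and without that library 4 of the 6 were negative, with a median of -0.05. RAD54B, at 39 and 25 reads in LV-CON and 37 and 44 reads in LV-TOX3 (0.263 to 0.505 RPKM), was below the filter and was not tested. RAD54B shares 66.0% of its exon bases with FSBP, a protein-coding gene on the same strand, so its level is uncertain.

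The helicases that take joined molecules apart were grouped with the BLM partners RMI1 and RMI2. This group had the highest median of the role groups, 0.14, with 3 of 4 genes positive and none past the test. That median was 0.02 without LV-CON replicate 1 and 0.05 without LV-TOX3 replicate 2, with 2 of 4 genes positive in each case. WRN, the helicase lost in Werner syndrome, was at 4.42 and 5.83 RPKM in LV-CON and 5.65 and 5.90 RPKM in LV-TOX3. LV-CON replicate 1 alone was low, and LV-CON replicate 2 lay among the LV-TOX3 values (log2 fold change 0.18, SE 0.15, adjusted p = 0.87). Without LV-CON replicate 2 the log2 fold change of WRN was 0.38, at an unadjusted p under 0.05, and without LV-CON replicate 1 it was -0.02. BLM, the helicase lost in Bloom syndrome, was at 1.07 and 1.30 RPKM against 1.31 and 1.38 RPKM, without overlap but with LV-CON replicate 2 next to LV-TOX3 replicate 1 (log2 fold change 0.17, SE 0.20, adjusted p = 0.90). Its partners in the dissolving complex differed in sign: RMI1 was at 6.54 and 6.16 RPKM against 6.12 and 7.74 RPKM (log2 fold change 0.12, adjusted p = 0.91), and RMI2 was at 2.21 and 1.64 RPKM against 1.83 and 1.38 RPKM (log2 fold change -0.25, SE 0.23, adjusted p = 0.87). RMI2 rested on 61 to 106 reads per library, and its groups overlapped.

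The damage checkpoint halts the cycle while repair proceeds, with ATR and its effector kinase CHEK1 answering to single strands and ATM and CHEK2 to breaks. CHEK1 was the only repair gene at an unadjusted p under 0.05. It was at 4.89 and 4.70 RPKM in LV-CON (570 and 551 reads) and 4.05 and 3.78 RPKM in LV-TOX3 (462 and 407 reads), so that both LV-TOX3 libraries lay below both LV-CON libraries and the replicates lay close together. The mean was 4.80 ± 0.134 RPKM in LV-CON and 3.91 ± 0.185 RPKM in LV-TOX3 (SD, n = 2), a ratio of 0.816, and limma gave a log2 fold change of -0.29 (SE 0.10, 95% interval -0.54 to -0.04, adjusted p = 0.72). The adjusted p does not pass. With any 1 library left out the log2 fold change stayed between -0.34 and -0.24 and the unadjusted p was above 0.05, while under each of the other settings tried, which kept all 4 libraries, the unadjusted p was under 0.05.

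CLSPN (claspin), the adaptor through which ATR reaches CHEK1, had the largest negative log2 fold change of the 43 genes and also the widest ratio between its LV-CON replicates. It was at 1.75 and 2.90 RPKM in LV-CON (168 and 280 reads) and at 1.84 and 1.34 RPKM in LV-TOX3 (173 and 119 reads). LV-CON replicate 1 lay below LV-TOX3 replicate 1, so the groups overlapped (log2 fold change -0.50, SE 0.29, adjusted p = 0.80). Counting error does not cover either pair of replicates: the ratio of replicate 2 to replicate 1 was 1.66 in LV-CON (exact 95% interval 1.36 to 2.02) and 0.730 in LV-TOX3 (0.573 to 0.928). Without LV-CON replicate 2 the log2 fold change of CLSPN was -0.15, and without LV-CON replicate 1 it was -0.84, in neither case at an unadjusted p under 0.05.

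CHEK2 was at 2.45 and 2.74 RPKM in LV-CON and 2.38 and 2.18 RPKM in LV-TOX3, and TOPBP1, the activator of ATR, at 7.99 and 8.58 RPKM against 7.62 and 7.95 RPKM. In both genes the LV-TOX3 values lay below the LV-CON values, with a gap between the groups smaller than the range within either (log2 fold changes -0.18, SE 0.13, adjusted p = 0.85, and -0.09, SE 0.09, adjusted p = 0.88). H2AFX, the histone variant that is phosphorylated around breaks, was the most abundant of the 45 genes at 51.7 and 63.6 RPKM against 49.1 and 63.7 RPKM. Its values split by replicate number and not by virus, with both replicates numbered 2 high (log2 fold change -0.04, SE 0.16, adjusted p = 0.98). The apical kinases ATM and ATR had means of 3.03 and 3.36 RPKM over the 4 libraries, with overlapping groups. ATRIP, the partner of ATR, was listed at 0 reads in 3 libraries and at 2 reads in LV-TOX3 replicate 2, and was not tested. It shares 26.7% of its exon bases with a neighbour on the same strand.

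The Fanconi core complex is the ubiquitin ligase of the pathway, and UBE2T is the E2 enzyme that supplies its ubiquitin. UBE2T was far above the core subunits, at 19.2 and 20.9 RPKM in LV-CON and 18.5 and 17.6 RPKM in LV-TOX3. The groups did not overlap, and the log2 fold change was -0.15 (SE 0.08, 95% interval -0.36 to 0.06, adjusted p = 0.78). FANCG, a scaffold of the complex, was at 7.15 and 7.76 RPKM against 6.72 and 7.07 RPKM (log2 fold change -0.11, adjusted p = 0.87). FANCC was at 1.86 and 2.26 RPKM against 1.84 and 1.83 RPKM, with 3 libraries nearly level and LV-CON replicate 2 above them (log2 fold change -0.15, SE 0.16, adjusted p = 0.88). FANCL, the catalytic RING subunit, ran the other way with 5.74 and 5.50 RPKM against 5.93 and 5.89 RPKM, without overlap (log2 fold change 0.07, SE 0.09, adjusted p = 0.91). The other core genes, FANCA, FANCB, FANCE, FANCF and FANCM, had mean levels between 0.737 and 3.88 RPKM and overlapping groups. Over the 9 genes 5 log2 fold changes were positive and 4 negative, with a median of 0.01. Neither sign was stable, since 6 of the 9 were negative without LV-CON replicate 1 (median -0.12) and 5 without LV-CON replicate 2 or without LV-TOX3 replicate 2 (medians -0.02 and -0.02).

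FANCD2 and FANCI form the clamp that the core complex ubiquitinates. FANCI was at 4.89 and 6.71 RPKM in LV-CON and 4.81 and 5.55 RPKM in LV-TOX3, and FANCD2 was at 1.92 and 2.79 RPKM against 2.12 and 2.02 RPKM. In both genes LV-CON replicate 2 exceeded LV-CON replicate 1 beyond counting error, by a ratio of 1.37 (exact 95% interval 1.24 to 1.52) for FANCI and 1.45 (1.25 to 1.70) for FANCD2. The log2 fold changes were -0.14 (SE 0.18, adjusted p = 0.91) and -0.16 (SE 0.21, adjusted p = 0.92), and without LV-CON replicate 2 they were 0.08 and 0.10. BRIP1, a helicase that binds BRCA1, had the largest positive log2 fold change of the 43 genes, with 1.83 and 1.97 RPKM in LV-CON (259 and 281 reads) and 2.37 and 2.16 RPKM in LV-TOX3 (330 and 283 reads). Both LV-TOX3 values lay above both LV-CON values, by 0.24 on the log2 scale (SE 0.14, 95% interval -0.12 to 0.60, adjusted p = 0.79). SLX4, the scaffold for nucleases that cut the crosslink out, was nearly level at 1.79 and 1.89 RPKM against 1.85 and 1.83 RPKM.

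The mismatch repair genes were the most even of the role groups in level and between groups. MSH6, which takes part in reading single mismatches, was at 6.79 and 6.99 RPKM in LV-CON and 6.52 and 7.14 RPKM in LV-TOX3 (log2 fold change -0.01, 95% interval -0.25 to 0.22). MSH3, which takes part in reading small loops, was at 5.67 and 6.64 RPKM against 6.33 and 6.42 RPKM, with LV-CON replicate 1 alone low (log2 fold change 0.05, adjusted p = 0.95). PMS2, the nicking subunit, was at 6.21 and 6.83 RPKM against 6.51 and 6.60 RPKM, and PMS1 was at 7.37 and 6.81 RPKM against 7.82 and 6.99 RPKM. The log2 fold changes of the 4 genes lay between -0.01 and 0.06, their mean levels between 6.26 and 7.25 RPKM, and all of their groups overlapped. PMS2, CHEK2, FANCD2 and BRCA1 have near-identical pseudogene copies, so their reads may be shared and their levels are uncertain.

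**Figure D2:**
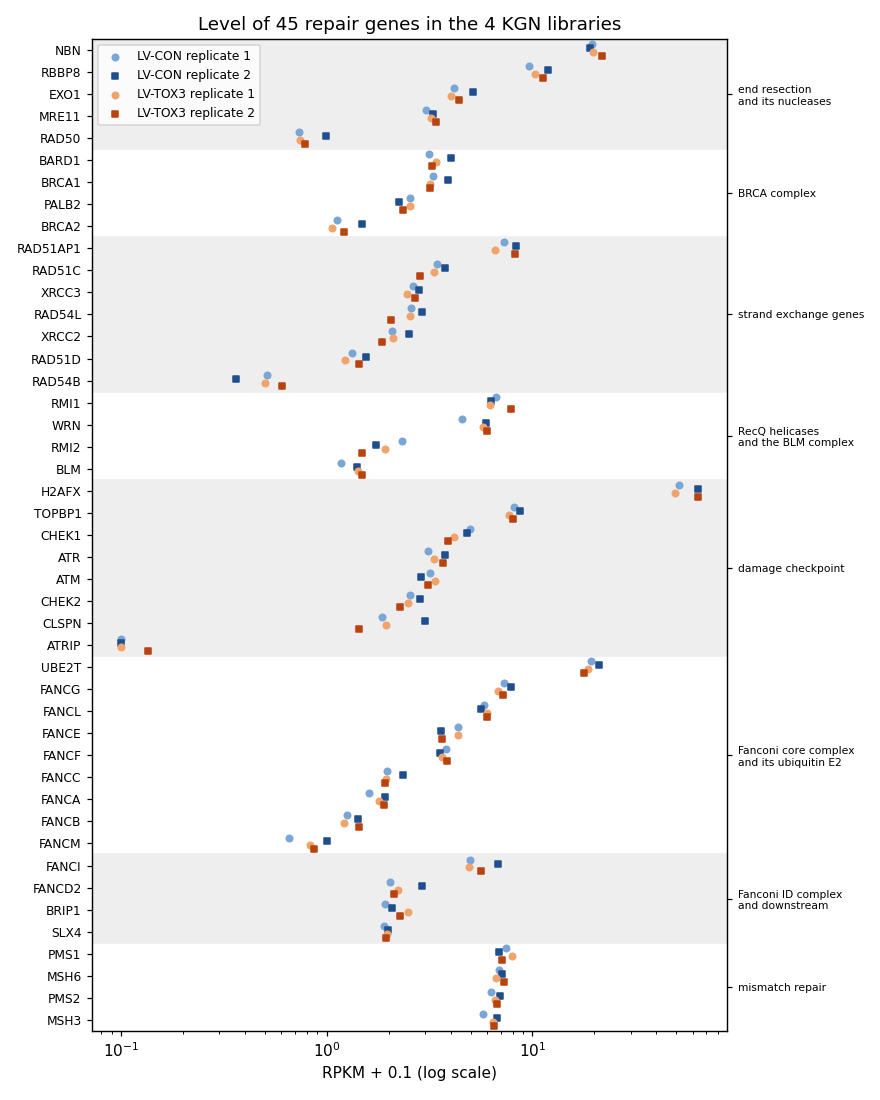
RPKM + 0.1 of the 45 repair genes (log axis) is plotted in each of the 4 libraries, ordered by role and within a role by mean level, with blue for LV-CON, orange for LV-TOX3, circles for replicate 1 and squares for replicate 2. H2AFX is the highest and ATRIP, at 0 in 3 libraries, the lowest, and the dark blue square of LV-CON replicate 2 is the rightmost mark for 26 of the 43 tested genes.

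One control library stood apart for these genes. LV-CON replicate 2 held the highest of the 4 values for 26 of the 43 tested genes (60.5%), against 27.8% of all genes tested. LV-CON replicate 2 lay above replicate 1 for 33 of the 43, by a median of 0.18 on the log2 scale, while over all genes tested it lay above for 51.4% with a median of 0.01. The LV-CON libraries differed beyond counting error for 18 of the 43 genes (34.0% of all genes tested) and the LV-TOX3 libraries for 10 (32.9% of all genes tested), by an exact binomial test. The excess of LV-CON replicate 2 was beyond it for 16 of the 43 (17.5% of all genes tested). Between the LV-TOX3 libraries 24 of the 43 were higher in replicate 2 (55.8%, against 55.1% of all genes tested). The order by role was uneven. All 6 strand exchange genes and 3 of the 4 BRCA complex genes were highest in LV-CON replicate 2. Of FANCD2, FANCI, BRIP1 and SLX4, 3 of the 4 were highest there, and 0 of the 4 genes of the helicase group were. Also highest there were 5 of 9 genes of the Fanconi core group and 4 of 7 tested checkpoint genes. The counts were 3 of 5 for end resection and 2 of 4 for mismatch repair.

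The sign of the median over the repair genes therefore rested on which LV-CON library entered. Without LV-CON replicate 1 the log2 fold change was negative for 32 of the 43 genes, with a median of -0.14. Without LV-CON replicate 2 it was negative for 16, with a median of 0.02. Leaving out either LV-TOX3 library gave 24 or 29 negative genes and medians of -0.02 or -0.08.

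Genes of the dividing cell moved with the same library. Of 23 proliferation genes, all 23 were higher in LV-CON replicate 2 than in replicate 1 (51.4% of all genes tested) and 18 were highest there (27.8% of all genes tested). Their summed level was 373, 429, 324 and 350 RPKM in the same order of libraries as above, LV-CON first. Between the viruses, 0 of the 23 were higher (3.07% of all genes tested) and 8 were lower in LV-TOX3 (3.73% of all genes tested) at an unadjusted p under 0.05, none at an adjusted p under 0.05, with a median log2 fold change of -0.12. MKI67, a marker of cycling cells, was at 16.0 and 20.3 RPKM in LV-CON and 12.0 and 13.9 RPKM in LV-TOX3 (log2 fold change -0.48, SE 0.14, adjusted p = 0.70). The other sign was held by 8 of the 23, among them E2F1 (log2 fold change 0.11), CDT1 (0.16), TYMS (0.12) and CCNE2 (0.19), none at an unadjusted p under 0.05. The median log2 fold change of the 23 genes depended on which libraries of both groups entered. It was -0.0014 without LV-CON replicate 2 and -0.06 without LV-TOX3 replicate 1. It was -0.14 without LV-TOX3 replicate 2 and -0.24 without LV-CON replicate 1. Such a fit holds 1 library in a group, so its counts of lower proliferation genes are not given. The part of the share of dividing cells in the levels of the repair genes was not tested.

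**Figure D3:**
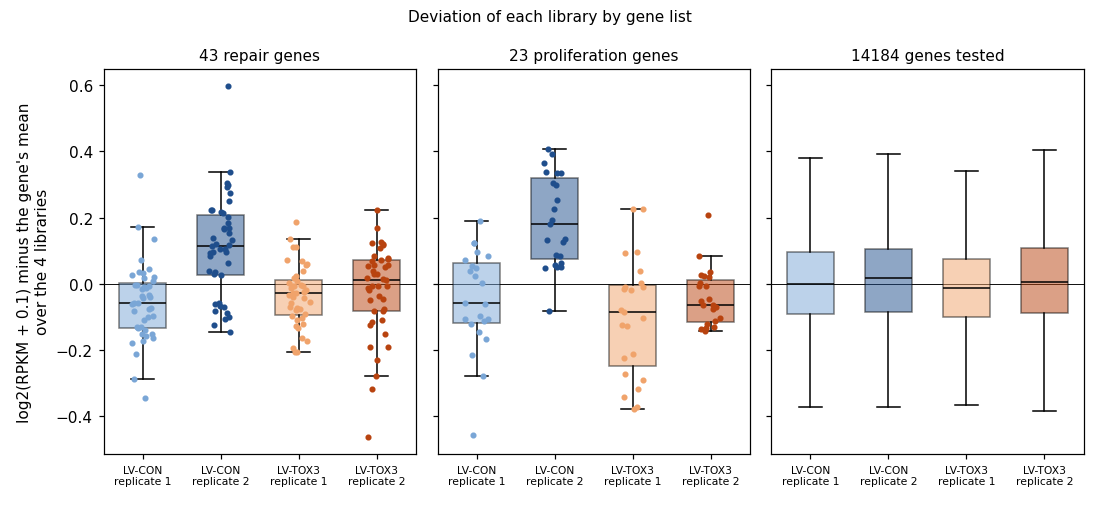
The log2 deviation of each library from the mean of each gene over the 4 libraries is shown for the 43 repair genes, 23 proliferation genes and all 14184 genes tested, with boxes for the quartiles, a line for the median, whiskers to the last value within 1.5 box lengths and, in the first 2 panels, a point per gene. The median of the repair genes is 0.11 in LV-CON replicate 2 and -0.06 in LV-CON replicate 1, while that of all genes is between -0.01 and 0.02 in every library.

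The remaining genes of these pathways were read from a separate list of 75, of which 73 were in the table and 68 were tested. By limma 0 of the 68 passed at an adjusted p under 0.05. At an unadjusted p under 0.05, 1 was higher (ETAA1, against 3.07% of all genes tested) and 0 were lower (3.73% of all genes tested). With 1 library left out, 0 to 1 were higher and 0 to 2 lower, and no gene of the list, ETAA1 included, was higher at that level without LV-CON replicate 1, without LV-CON replicate 2 or without LV-TOX3 replicate 2. ETAA1, which activates ATR at single strands independently of TOPBP1, was at 12.7 and 11.4 RPKM in LV-CON and 13.6 and 15.9 RPKM in LV-TOX3 (log2 fold change 0.29, SE 0.11, adjusted p = 0.72). Next in order of p were CENPX, a histone-fold partner of FANCM, with a log2 fold change of -0.23 (adjusted p = 0.73), RNF168, a ubiquitin ligase that acts on chromatin at breaks, with -0.31 (adjusted p = 0.73), and MAD2L2, a subunit of the shieldin complex that limits resection, with -0.23 (adjusted p = 0.73). The list had 30 positive and 38 negative log2 fold changes (53.2% of all genes tested were negative), with a median of -0.03. Of its 68 genes, 31 were highest in LV-CON replicate 2 (27.8% of all genes tested).

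TOX3 is known from work in neurons to bind CREB, a factor that reads the cAMP response element (CRE), and the repair promoters were therefore searched for that element, TGACGTCA, on both strands. The window was the 250 bases before each RefSeq gene start on GRCh38.p14, and 40 of the 45 genes had an entry. The element was found in 4 of them (10.0%), against 2.03% of the 27305 genes with a promoter of the same length. That set, also used for the other motifs below, includes genes that were not tested here. It was not matched to the repair genes by level or base content. The 4 matches are printed 5′ to 3′ on the strand of the gene with the element in capitals, because they are the promoter stretches of these genes that carry it, and they lie at chr1:241848139-241848168 on the plus strand (EXO1), chr7:6009192-6009221 on the minus strand (PMS2), chr17:58692561-58692590 on the plus strand (RAD51C) and chr7:152676258-152676287 on the minus strand (XRCC2).
EXO1: gggatacgcgtTGACGTCAcatcctctggg
PMS2: cccaggctcttTGACGTCAcgaagtcgacc
RAD51C: cgctttacgtcTGACGTCAcgccgcacgcc
XRCC2: acgcggaagtcTGACGTCAcaggaactggg

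The element began 54, 104, 30 and 135 bases before the RefSeq start of EXO1, PMS2, RAD51C and XRCC2. Their log2 fold changes were -0.13, 0.01, -0.23 and -0.22, none at an unadjusted p under 0.05. All 4 genes were highest in LV-CON replicate 2, as were 26 of the 43 tested repair genes (27.8% of all genes tested). Letters of cell cycle control were searched in the same windows. An E2F site (TTTCCCGC or TTTGGCGC) was found in 2 of the 40 genes, FANCC and MSH3 (5.0%, against 2.36% of all genes), the CHR element (TTTGAA) in 5 (12.5%, against 16.1%) and the CCAAT box (CCAAT) in 22 (55.0%, against 37.0%). No other motif searched overlapped the CRE matches. A match of letters is a description and does not show binding.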

How the data were processed

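KGN libraries of LV-CON and LV-TOX3 cells, 2 each, were grouped by the titles in the labels. The authors deposited RPKM values for 33880 genes. Their methods name SOAPnuke for filtering, HISAT2 for alignment to hg38, expectation maximization for quantification, limma-voom for testing and ComBat for batches. Tool versions, what the batches were and any batch correction of the RPKM table are not given in the sources. The reads printed were recovered from the RPKM steps, which came out whole for all 29088 genes above 0 (relative tolerance 1e-11). Of the totals, 17444534, 17540070, 17108592 and 16105318 reads lay in genes.

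A two-sided limma fit (version 3.58.1, R 4.3.3, trended eBayes, no block) was run on log2(RPKM + 0.1) for genes whose mean reached 0.5 RPKM, with Benjamini-Hochberg adjustment over 14184 genes. A fold change on this scale is understated for low genes. With 2 against 2 libraries an exact permutation test cannot give a p under 0.333. Differences between replicates were compared with counting error by exact binomial tests and Clopper-Pearson 95% intervals on reads, which cover counting error only. Replicates were not the same library deposited again, since their reads differed by a chi-square of 8.17 (LV-CON) and 9.67 (LV-TOX3) per degree of freedom. The fit was tested on simulated data. Python 3.11.15 with numpy 2.4.6, pandas 2.3.3 and scipy 1.17.1 was used. Promoters are from RefSeq (GRCh38.p14) and exon overlaps from GENCODE v44.

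The genes and lists were chosen with earlier results of these data known. The rule for named genes took TOX3, BRCA1, repair genes at an unadjusted p under 0.05, and in each role up to 4 genes in order of p with the most abundant, besides at most 4 other pathway genes in order of p. MKI67, E2F1, CDT1, TYMS, CCNE2 and the FOXL2, NR5A1, CYP11A1, AMHR2 and STAR markers were named after their values were seen, as were the 4 genes with a CRE and genes at an extreme. Alternatives were another pseudocount (1), no filter and a filter of 1 RPKM, median ratio scaling, the replicate number as a block, limma-voom on the recovered reads and each library left out. Other assays of the study were not analysed here.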

Additional observations from a re-analysis of the deposited data

How the results depend on the processing

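With 1 library left out, the remaining library of that group is assumed to vary like the others. The count over all genes at an adjusted p under 0.05 was then 0 (1 with all libraries), and those at an unadjusted p ranged from 203 to 427 higher and 304 to 469 lower, against 436 and 529. Of the repair genes, 0 to 1 were higher (WRN, without LV-CON replicate 2), 0 were lower, 16 to 32 were negative, and the median ranged from -0.14 to 0.021. In 24 repair genes leaving out a library turned the sign, and the log2 fold change ranged from -0.10 to 0.17 for ATR, -0.27 to 0.086 for BARD1, -0.38 to 0.019 for BRCA2, -0.28 to 0.014 for EXO1, -0.061 to 0.19 for FANCA, -0.15 to 0.094 for FANCB, -0.42 to 0.10 for FANCD2, -0.13 to 0.15 for FANCE, -0.021 to 0.069 for FANCF, -0.37 to 0.079 for FANCI, -0.24 to 0.38 for FANCM, -0.22 to 0.15 for H2AFX, -0.057 to 0.17 for MSH3, -0.079 to 0.050 for MSH6, -0.054 to 0.12 for PALB2, -0.020 to 0.14 for PMS1, -0.059 to 0.076 for PMS2, -0.39 to 0.050 for RAD50, -0.24 to 0.086 for RAD51AP1, -0.22 to 0.0032 for RAD51D, -0.15 to 0.17 for RBBP8, -0.051 to 0.28 for RMI1, -0.036 to 0.039 for SLX4 and -0.015 to 0.38 for WRN. No repair gene turned its sign under another setting.

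Without a filter on low values 0 genes passed at an adjusted p under 0.05, with 897 higher and 863 lower at an unadjusted p. The replicate numbers are shared between the groups, and the deviations of same-numbered libraries correlated at 0.19, but with 2 pairs the numbers do not show that the libraries were paired. With the replicate block, 765 genes were higher and 992 lower at an unadjusted p, and 1 passed at an adjusted p. With limma-voom on the recovered reads and the replicate block, 614 genes passed at an adjusted p (982 higher and 1052 lower at an unadjusted p). Of the repair genes 1, CLSPN, then passed at an adjusted p (log2 fold change -0.54), and 2 were lower at an unadjusted p, CLSPN and CHEK1. Of the 68 other pathway genes, 1 was higher and 3 were lower at an unadjusted p with the replicate block, 3 and 5 with limma-voom and the block, and 1 and 1 with limma-voom alone. Without the block limma-voom passed 1 gene. The cause of these differences was not tested. The other planned settings kept these counts within 1.5 times.

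The limits are 2 libraries a group, unknown batches and an unknown source of the replicates. RAD54B and ATRIP were below the filter and could not be tested, and lower levels widen the intervals of FANCM and RAD50. Exon bases shared with another protein-coding gene were found for 21 of the 45 genes, in 6 of them on the same strand. The shared part ranged from 0.316% (ATM) to 76.9% (RAD50). The levels of genes with a large shared part or with pseudogene copies are uncertain.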
